A study of Mus musculus with 20 samples.

Results

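The genes described here were 10 heat shock proteins and chaperones, measured by single-cell RNA-sequencing (scRNA-seq) in the stromal and immune cells of mouse interscapular brown adipose tissue (iBAT). They were chosen by name, each symbol matched 1 row, and they made up 10 of the 31053 genes counted. The members were the stress-inducible Hsp70 genes Hspa1a and Hspa1b, the Hsp70 partners Dnajb1 and Hsph1, the cytosolic Hsp90 genes Hsp90aa1 and Hsp90ab1, the constitutive cytosolic Hsp70 gene Hspa8, the endoplasmic reticulum (ER) Hsp70 gene Hspa5 (BiP), and the mitochondrial chaperonin genes Hspe1 (Hsp10) and Hspd1 (Hsp60).

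Chaperones bind unfolded or newly made proteins and release them folded, in cycles driven by ATP. In the Hsp70 cycle a J-domain protein such as Dnajb1 delivers the client and starts ATP hydrolysis, and a nucleotide exchange factor such as the Hsp110 protein Hsph1 releases it. Hsp90 acts later, on kinases, steroid receptors and other nearly folded clients. Heat shock factor 1 (HSF1) activates the inducible members from heat shock elements in their promoters, and the unfolded protein response drives Hspa5 when folding in the ER is overloaded. The chaperonin pair folds proteins imported into mitochondria, the organelles that are packed densely into brown adipocytes. Brief warming and enzymatic dissociation of tissue are also known to induce Hspa1a, Hspa1b and Dnajb1 together with immediate early genes.

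The C57 groups were male C57BL/6J mice, at room temperature (RT), after 4 days at 6 °C (COLD), or after a 4-day pump infusion of CL316,243 (CL), which activates the beta-3 adrenergic receptor ADRB3, with 2 experiments per treatment. All mice of the series were labelled as 8 to 14 weeks old. Female mice of a floxed Adrb1 line, all treated with tamoxifen, were either Adrb1 fl/fl; Pdgfra-CreER -/- (WT) or Adrb1 fl/fl; Pdgfra-CreER +/- (KO), where Cre is driven by the Pdgfra promoter and so acts in adipose stromal cells (ASCs). They were studied at RT and in COLD in 1 experiment each. Cells of several pooled mice were digested with collagenase and split by magnetic beads into a fraction bearing immune lineage markers (Lin+) and one without them (Lin-), 1 library each, giving 20 libraries. Because mice were pooled before library preparation, the 2 experiments of a C57 group were the replicates, and p-values measure the spread between those pools.

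Libraries kept 2427 to 12894 Lin- and 2424 to 10250 Lin+ cells, with a median of 1204 to 3881 and 1864 to 4358 unique molecular identifiers (UMIs) per cell. Cells were clustered without the chaperone genes, and a class was named only from its markers, so ASC1 below stands for ASC1-like cells and likewise for the other names. The ASC1 class joined 3 clusters in which 4, 6 and 5 of 6 ASC1 markers were raised over other ASCs. Over the whole Lin- fraction only 2 and 1 ASC1 markers were raised in the first and last of these, under the 3 otherwise asked for a name, so their naming is uncertain. The first was led by the interferon-induced genes Cxcl10 and Cxcl9. That cluster held 68.2% and 74.6% of the ASC1 cells in COLD, whereas another held 79.7% and 70.0% of them at RT. Among the macrophage class MAC2, 95.2% and 96.1% of cells at RT lay in 1 cluster and 93.8% and 87.8% in COLD lay in another. Results for both classes are therefore given within the main RT cluster as well. In the KO mice the floxed gene Adrb1 had 1 count in the RT and 3 counts in the COLD ASC1 class, against 14 and 51 counts in the WT.

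In the GRCm38 build, Hspa1a lies at chr17:34969190-34972156 and Hspa1b at chr17:34956436-34959238, both on the minus strand and separated by 9951 bases. Hspe1 (chr1:55088132-55091307, plus strand) and Hspd1 (chr1:55077835-55088243, minus strand) form a head-to-head pair of overlapping gene models. Of the 2 RefSeq starts of Hspd1, the start that faces away from Hspe1 lies 216 bases from that of Hspe1. Hspa5 lies at chr2:34771970-34777547 on the plus strand, Hsph1 at chr5:149614287-149636376 on the minus strand, Dnajb1 at chr8:83608193-83612653 on the plus strand and Hspa8 at chr9:40800984-40810087 on the plus strand. Hsp90aa1 lies at chr12:110690605-110702728 and Hsp90ab1 at chr17:45567775-45573271, both on the minus strand. The pieces of promoter shown next, from RefSeq on GRCm38.p6, were chosen because they hold a heat shock or ER stress motif and belong to members called in at least 1 comparison. The motifs of Hsph1, Hspa5 and Hspe1 lie upstream of the RefSeq start used here but within an annotated exon, and that of Hspa1a does not. Each is written on the strand of its gene, with the motif in capitals. RefSeq windows were matched for 7 of the 10 members, and none was matched for Hspa8, Hsp90aa1 and Hsp90ab1.
Hspa1a (chr17:34972213-34972300, minus strand, HSE of 2 units in capitals): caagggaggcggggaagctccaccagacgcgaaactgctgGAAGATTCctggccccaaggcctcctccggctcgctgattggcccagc
Hsph1 (chr5:149636351-149636380, minus strand, HSE of 2 units in capitals): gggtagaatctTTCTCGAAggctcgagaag
Hspe1 (chr1:55088053-55088082, plus strand, overlapping HSEs of 3 units in capitals): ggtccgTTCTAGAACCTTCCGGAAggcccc
Hspa5 (chr2:34772020-34772048, plus strand, ER stress response element in capitals): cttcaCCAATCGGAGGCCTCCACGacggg

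A heat shock element (HSE) of 2 units was searched as GAANNTTC or TTCNNGAA and one of 3 units as GAANNTTCNNGAA or TTCNNGAANNTTC, so that every 3-unit match also holds a 2-unit match. Of 32851 promoter windows of 250 bases, 12.8% held a 2-unit HSE and 0.466% a 3-unit HSE. The Hspa1a stretch shown was identical, letter for letter, in Hspa1b (chr17:34959295-34959382), and over the whole window the promoters differed at 3 of 250 positions (98.8% identity), with a 2-unit HSE at -104 and a CCAAT box (held by 33.8% of windows) at -67 in both. The overlapping 3-unit HSEs at -89 and -84 of Hspe1 are, read on the other strand, those at -144 and -139 of Hspd1, so the chaperonin genes share 1 element. Those Hspd1 positions are counted from the start that faces away from Hspe1, and the window before the other Hspd1 start held no HSE. The Hspa5 window held 4 CCAAT boxes, a TATAA match (22.8% of windows) and an ER stress response element at -65, the last of which was present in 0.113% of windows. No HSE of either form was matched in the Dnajb1 window. A match describes the letters only.

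At their 3′ ends, where these libraries read transcripts, Hspa1a and Hspa1b could be told apart. None of the windows of 58 bases (the transcript read length of the kit used for all C57 libraries) in the last 500 bases of Hspa1a, Hspa1b, Hsph1, Dnajb1 or Hspa5 was shared with another gene. By contrast, 67.2% of such windows in Hspa8, 47.2% in Hspe1, 27.2% in Hspd1, 23.5% in Hsp90aa1 and 1.76% in Hsp90ab1 also occurred in another gene model, which in each case was a pseudogene-type copy and never another member. How the counting divided such reads was not tested. The WT and KO RT libraries, made with another kit, had slightly shorter reads, for which windows were not compared.

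Levels are given in CPM, the count of a gene summed over all cells of a class in a library and scaled to a common total of UMIs. Among Lin- cells, differentiating adipocytes had the highest mean level of 6 of the 10 members: Hsph1, Hsp90aa1, Hsp90ab1, Hspa8, Hspe1 and Hspd1. Hspe1 reached 2544 and 2672 CPM in the differentiating adipocytes of the COLD libraries and 2336 and 2175 CPM in those of the CL libraries, against 345, 432, 284 and 308 CPM in the ASC1 class of the same libraries. Hspd1 reached 2638 and 1786 CPM in COLD and 2113 and 1534 CPM in CL. At RT the class was nearly absent, with 0 and 16 cells in C57 mice, so no change against RT could be estimated there, and COLD was not tested against CL in this class. The 43 and 23 cells grouped with this class in the WT and KO RT libraries did not carry its markers, with 166 and 413 CPM of RNA summed over 8 brown adipocyte genes, against 13632 to 42253 CPM in every other library of the class, so their chaperonin levels are not set against COLD. Without these libraries the same members had their highest mean in the class, although Hsp90aa1 was above the proliferating class in only 2 of 6 libraries that held both. Proliferating stromal cells ranked next for the chaperonins, and the step from the differentiating to the proliferating class was 1.30 for Hspd1 and 1.01 for Hspe1 (difference of log2(CPM + 1), higher in 7 of 7 libraries, exact sign-flip permutation test, adjusted p = 0.0841 for both). Without the WT RT library, the only RT library in this comparison, the steps were 1.46 and 1.15 (6 of 6 libraries, exact permutation test, adjusted p = 0.109 for both).

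Hspa1a and Hspa1b were instead highest in vascular endothelial cells (VEC), with medians of 910 and 119 CPM over libraries. Hspa1a in VEC was 1593 and 897 CPM at RT, 922 and 580 CPM in COLD and 1071 and 679 CPM in CL, so the libraries of the 3 treatments overlapped. In the ASC1 class the same gene stood between 37.9 and 227 CPM in C57 libraries. The J-domain gene Dnajb1 and the ER gene Hspa5 were highest in ASC1, with medians of 302 and 831 CPM. Across the Lin- classes, 0 of 70 steps between neighbours in these orders passed the exact test after adjustment, which does not show that neighbours were alike. For example, Hspa1a was higher in vascular smooth muscle cells (VSMC) than in Schwann cells in 10 of 10 libraries, by 1.27 ± 0.68 (SD) on the log2(CPM + 1) scale (exact sign-flip permutation test, adjusted p = 0.0684).

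Among Lin+ cells, Hspa1a had its highest mean over all libraries in MAC2 (median 857 CPM), followed by monocytes (MONO, median 779 CPM) and dendritic cells (DEND), but MAC2 was above MONO in only 4 of 10 libraries and the order turned with treatment, as given below. Hspa1b was highest in MONO (232 CPM), Hsph1 in T cells (94.2 CPM), Dnajb1 in B cells (226 CPM), Hspa5 in the MAC1 macrophages (1108 CPM), Hspe1 in DEND (605 CPM) and Hspd1 in natural killer cells (NK, 226 CPM), each as a median over libraries. Hsp90aa1 (1179 CPM) and Hspa8 (2760 CPM) were highest in proliferating immune cells and Hsp90ab1 in NK. Erythroid cells had the lowest level of all 10 members. Of 100 neighbouring steps 15 passed the exact test, and 8 of these were the step down to erythroid cells. The other 7 included Hspd1 in MAC2 over MONO by 0.35 (adjusted p = 0.0391) and Hspd1 in MONO over neutrophils (NEUT) by 0.35 (adjusted p = 0.0195) on the log2(CPM + 1) scale. Within the C57 libraries alone no step passed, since 6 libraries cannot give an unadjusted p below 0.03125.

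The question the design poses for these genes is whether 4 days of cold, or of ADRB3 activation, changed their levels within a cell class. Class sums were compared between treatments with edgeR's quasi-likelihood test, p-values were adjusted over all genes of a class and contrast, and changes are log2 fold changes. In Lin+ classes, COLD against RT gave 7 calls among 86 tests of a member in a class, 3 higher and 4 lower, where 5.2% of all gene tests in these classes were called, and 31 tests (36.0%) had an unadjusted p under 0.05, beside 19.4% of all gene tests. CL against RT gave 2 calls, both lower, where 0.835% of all gene tests were called. In Lin- classes, COLD against RT gave 2 calls of 58, both higher, where 3.05% of all gene tests were called. CL against RT gave 0 of 58 calls in Lin- classes by edgeR and also by DESeq2 (5 with an unadjusted p under 0.05, or 8.62% beside 8.99% of all gene tests, and 0.365% of all gene tests called). With the replicate number as a block there were 12 calls in Lin+ classes in COLD and 7 in CL, and 2 and 2 in Lin- classes. The 2 Lin- calls in CL under the block were Hsph1 in ASC1 (0.83, adjusted p = 0.0342) and in ASC2 (1.30, adjusted p = 0.0201). The counts also moved with single libraries. In Lin- classes the CL count was 12 without RT replicate 1 and 4 without the low-count filter, and the COLD count was 12 when RT replicate 1 was left out, 0 when COLD replicate 1 was and 1 when COLD replicate 2 was. In Lin+ classes in COLD there were 17 without CL replicate 1 and 18 without CL replicate 2, but 3, 1 and 3 without RT replicate 1, COLD replicate 1 and COLD replicate 2. In CL there were 13 without CL replicate 2, 0 without RT replicate 1 and 1 without RT replicate 2. The share of all gene tests called in these alternative fits is not given, so their counts do not set the members apart from other genes. Where a library was left out, its group held 1 library, so the spread came from the other groups. The median change of the members in Lin+ classes was 0.38 in COLD and 0.23 in CL, against 0.01 for all genes in either, and 66 and 55 of 86 values lay above 0. In Lin- classes the median was 0.10 in COLD and 0.32 in CL, against 0.00 and -0.00 for all genes, with 31 and 46 of 58 values above 0. The heat maps of the fitted changes show the values that stood apart.

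**Figure D1:**
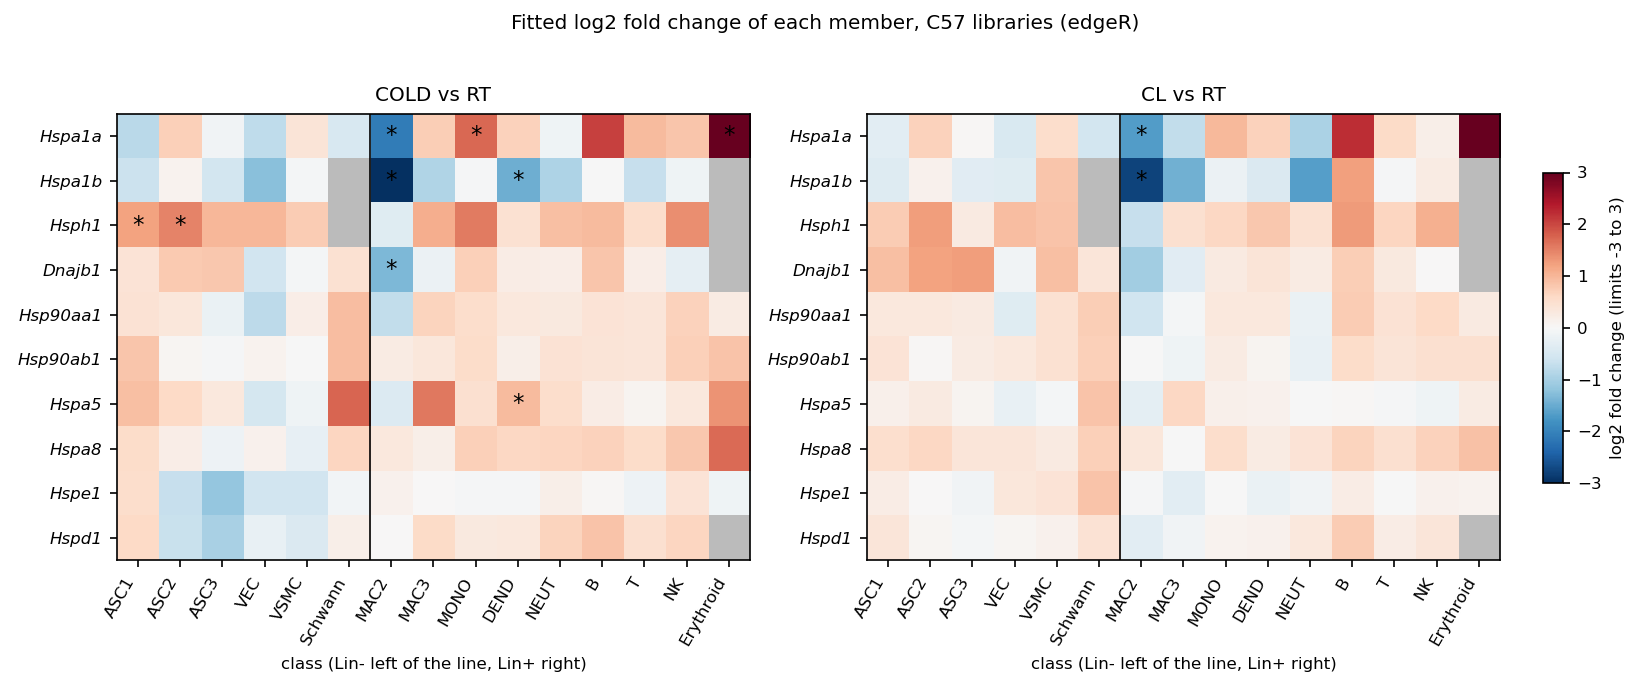
Fitted log2 fold changes of the 10 members (rows) in each tested class (columns) for COLD against RT and for CL against RT, with an asterisk where the edgeR adjusted p was under 0.05 and grey where a member was not tested. In COLD, Hspa1a and Hspa1b carried negative values of -2.10 and -3.84 in MAC2 while Hspa1a was higher by 1.73 in MONO.

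The 2 RT libraries of the Lin- fraction stood apart from each other for several members, which bears on every Lin- comparison against RT. Which of them lay further from the treated libraries differed by member. For Hspa1a in VEC, given above, RT replicate 1 lay above all treated libraries and RT replicate 2 among them. For Hspa8 in ASC1, given next, RT replicate 2 lay below all of them. Of the barcodes of RT replicate 2 in the Lin- fraction, 72.0% exceeded the limit on mitochondrial reads and were left out. Its Hspa8 was below that of RT replicate 1 in 6 of 6 classes, by 0.98 to 2.68 on the log2(CPM + 1) scale, and in each class only 0.349% to 1.72% of genes were as low or lower. In ASC1, for example, Hspa8 was 922 CPM in RT replicate 1 and 143 CPM in RT replicate 2, with 992 and 729 CPM in COLD and 723 and 810 CPM in CL. Hspa1a (median difference -2.44), Hspa5 (-1.44), Dnajb1 (-1.21) and Hspa1b (-0.70) were also lower in replicate 2 in 6 of 6 classes. Hspd1 was 0.02 to 0.70 higher in all 6, but the median gene was 0.33 to 0.67 higher too, and in the classes other than Schwann cells Hspd1 lay under that median, with 13.5% to 23.4% of genes as low or lower. In the Lin+ fraction of the same experiment Hspa8 was lower in 3 of 9 classes, with a median difference of 0.08. Other members were lower there, with Hsph1 in 9 of 9 classes (median difference -0.89), Hsp90ab1 in 9 of 9 (-0.26), Hspa5 in 8 of 9 (-0.34) and Hspa1b in 7 of 9 (-0.79). In Lin- RT replicate 2 the immediate early genes and depth were lower as well. A list of 16 such genes summed to 6250 CPM in its ASC1 class against 14997 CPM in RT replicate 1, and to 9238 against 25618 CPM in VSMC, and the median UMI count of an ASC1 cell was 1534 against 5079. The part of the lost cells, of depth and of these genes in the low values was not tested.

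**Figure D2:**
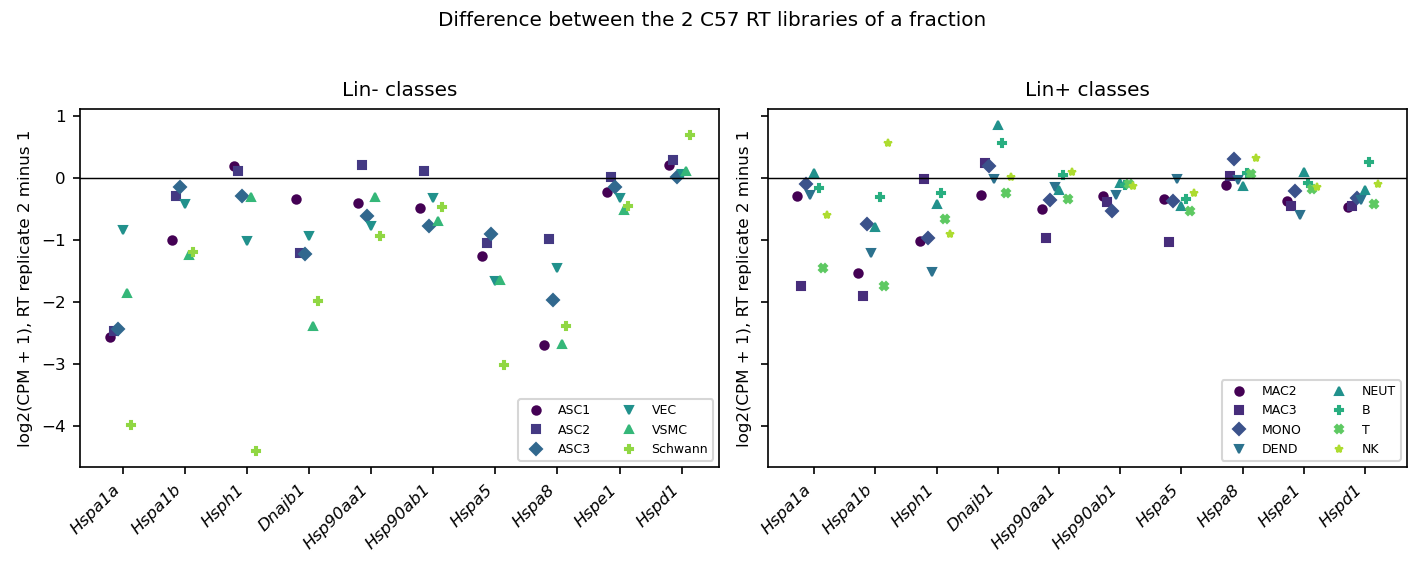
Difference of log2(CPM + 1) between RT replicate 2 and RT replicate 1 for each member, with 1 point per class, in 6 Lin- classes and 8 Lin+ classes (erythroid cells are not drawn). Hspa8, Hspa1a, Hspa5, Dnajb1 and Hspa1b lie below 0 in every Lin- class, whereas Hspd1 lies above 0 in every Lin- class, where the median gene lies at 0.33 to 0.67.

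The members called in stromal cells were the exchange factor Hsph1 in ASC1 and ASC2. In ASC1 it was 16.2 and 18.6 CPM at RT, 45.8 and 30.7 CPM in COLD, and 31.2 and 22.2 CPM in CL. Neither COLD library overlapped the RT pair. Among all genes tested, 16.3% in ASC1 and 9.21% in ASC2 were separated without overlap in this same direction. Hsph1 rose in ASC1 by 1.21 ± 0.22 (log2 fold change ± SE, adjusted p = 0.0117) where 12.3% of the genes tested in ASC1 were called. In ASC2 Hsph1 was 12.5 and 13.8 CPM at RT against 40.6 and 32.5 CPM in COLD, a rise of 1.49 ± 0.26 (adjusted p = 0.0343) where 0.907% of genes were called. The gene was above 0 in 5 of 5 Lin- classes tested, with changes of 0.77 to 1.49. The ASC1 call was lost without COLD replicate 1 (0.96, adjusted p = 0.0884), without RT replicate 2 (1.02, adjusted p = 0.0837) and within the main RT cluster alone (1.04, adjusted p = 0.111). The ASC2 call was lost without any 1 of the RT or COLD libraries, at changes of 1.28 to 1.77. ASC1 cells in COLD also held more RNA of brown adipocyte genes (1118 and 1414 CPM over 8 genes, against 113 and 113 CPM at RT) and of cell-cycle genes (287 and 176 CPM over 8 genes, against 14.8 and 19.2 CPM), and the part of either in the Hsph1 value was not tested. In ASC2 these were 369 and 128 CPM in COLD against 51.6 and 31.6 CPM at RT for the adipocyte genes, and 112 and 37.1 CPM against 13.5 and 14.5 CPM for the cell-cycle genes.

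No other member was called in the Lin- classes in the main edgeR fit. Hspa5 in ASC1 was 786 and 330 CPM at RT, 1135 and 992 CPM in COLD and 527 and 644 CPM in CL, a change in COLD of 0.90 (adjusted p = 0.399). Hspa8 in ASC1 changed by 0.56 ± 0.86. Without RT replicate 1, the low library alone stood for RT, and Hspa8 in ASC1 changed by 3.07 in COLD. Hspa1a in Schwann cells changed by 2.98 in that fit and by -1.38 without RT replicate 2, where Hspa1b in ASC1 changed by -1.22. Each of these fits holds 1 RT library, so its spread came from the other groups. The size of such changes in Lin- cells, and for Hspa1a in Schwann cells the direction, thus depended on which RT library was used. In VSMC, Hspa8 was likewise 1673 and 263 CPM at RT.

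A comparison of classes within the same libraries sets the cold response of 1 class against that of another. A library that stands apart can still enter it, since the gap between the RT replicates differed by class (for Hspa8 -2.68 in ASC1 and -0.98 in ASC2). The mitochondrial chaperonins went different ways in the ASC classes. Hspe1 in ASC1 was 308 and 263 CPM at RT against 345 and 432 CPM in COLD, whereas in ASC2 it was 295 and 299 CPM at RT against 146 and 207 CPM in COLD, and in ASC3 264 and 239 CPM at RT against 93.0 and 132 CPM in COLD. In ASC2 and ASC3 both COLD libraries lay under both RT libraries, and in ASC1 both lay above them. Of all genes tested, 13.8% in ASC2 and 11.4% in ASC3 lay so below, and 16.3% in ASC1 so above. Hspd1, its partner in the folding chamber, was 111 and 129 CPM at RT against 188 and 149 CPM in COLD in ASC1, 106 and 130 CPM at RT against 85.6 and 58.7 CPM in COLD in ASC2, and 106 and 107 CPM at RT against 61.2 and 50.3 CPM in COLD in ASC3. None of these 6 changes passed the test within its class, the nearest being Hspd1 in ASC1 (0.60, adjusted p = 0.110).

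The difference between classes did pass. The cold response of ASC1 exceeded that of ASC2 by 1.27 for Hspe1 (adjusted p = 4.98e-04) and by 1.28 for Hspd1 (adjusted p = 4.50e-05), where 9.82% of genes differed between these responses. It exceeded that of ASC3 by 1.69 for Hspe1 (adjusted p = 2.73e-06) and by 1.53 for Hspd1 (adjusted p = 4.50e-06), where 9.03% of genes differed. All 4 calls held in 6 of 6 fits that each left out 1 library. Against VEC the response of ASC1 was higher for Hspe1 by 1.11 (adjusted p = 0.0409) and for Hspa5 by 1.37 (adjusted p = 0.0479), where 5.7% of genes differed, and both were lost in 4 of 6 such fits. In CL, where 1.9% of genes differed between ASC1 and ASC2, neither chaperonin was called. Within the main RT cluster of ASC1, Hspe1 was 296 and 251 CPM at RT against 238 and 303 CPM in COLD, and Hspd1 was 110 and 129 CPM at RT against 156 and 114 CPM in COLD, so there the COLD libraries did not both lie above RT. The brown adipocyte genes summed to more in the COLD ASC1 libraries, at 1118 and 1414 CPM, than in those of ASC2 (369 and 128 CPM) and ASC3 (489 and 72.0 CPM), and differentiating adipocytes held several times more of both chaperonins, as given above. In VEC the same list summed to 41006 and 67347 CPM at RT against 54271 and 50026 CPM in COLD, so high sums were not particular to differentiating adipocytes. The part of that RNA, and of the shift between clusters, in the ASC1 values was not tested. In the Adrb1 line, where kit and cold cannot be told apart, Hspe1 was higher in COLD in both genotypes in ASC1 (181 and 590 CPM in the WT, 171 and 623 CPM in the KO) and also in ASC2 (189 and 277 CPM in the WT, 185 and 293 CPM in the KO), unlike in the C57 mice. In ASC3 Hspe1 was 184 and 181 CPM in the WT and 179 and 154 CPM in the KO. Its change was larger in ASC1 (1.70 in the WT and 1.86 in the KO, log2(CPM + 1)) than in ASC2 (0.55 and 0.66). Hspd1 in ASC1 was 146 and 250 CPM in the WT and 162 and 223 CPM in the KO. In COLD it was lower in ASC2 (138 and 122 CPM in the WT, 151 and 118 CPM in the KO). The same held in ASC3 (129 and 113 CPM in the WT, 155 and 83.9 CPM in the KO).

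**Figure D3:**
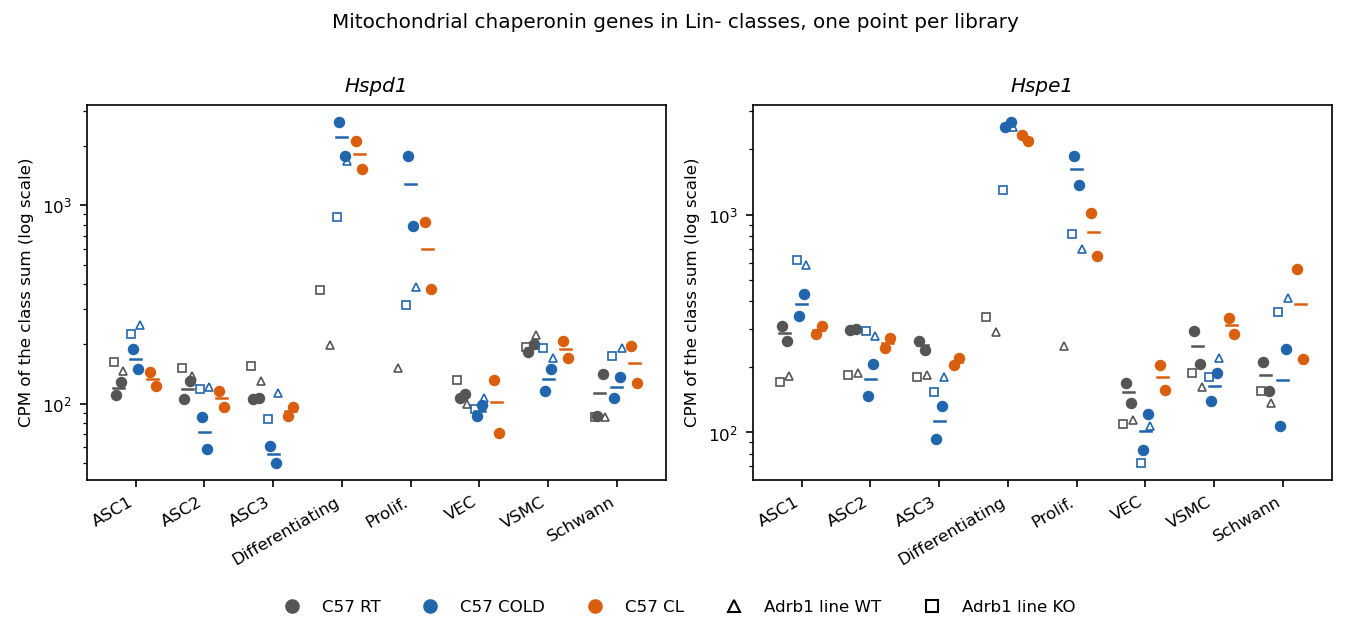
CPM of Hspd1 and Hspe1 in every library (log axis) for the Lin- classes with at least 20 cells, with filled points for C57 libraries, bars for their mean, triangles for Adrb1 WT and squares for Adrb1 KO. The C57 COLD points of ASC2 and ASC3 lie under the C57 RT points and those of ASC1 lie above them, whereas the Adrb1 points for Hspe1 lie higher in COLD in ASC1 and ASC2, and the differentiating adipocytes of C57 libraries lie above 1000 CPM.

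Hspa1a, the inducible Hsp70 gene, went the other way between ASC classes. In ASC1 it was 227 and 37.9 CPM at RT against 120 and 49.9 CPM in COLD, in ASC2 88.3 and 15.2 CPM at RT against 113 and 81.8 CPM in COLD, and in ASC3 126 and 22.7 CPM at RT against 88.4 and 81.5 CPM in COLD. The RT replicates of all 3 classes were several-fold apart, and their range overlapped the COLD values. The cold response of ASC1 was below that of ASC2 by 1.61 (difference -1.61, adjusted p = 3.43e-04, kept in 6 of 6 leave-one-out fits) and below that of ASC3 by 0.92 (difference -0.92, adjusted p = 0.0231). The CL response of ASC1 was also below that of ASC2 (-0.99). The immediate early genes summed to 14997 and 6250 CPM at RT against 8224 and 7936 CPM in COLD in ASC1, and to 13884 and 5888 CPM at RT against 13026 and 12045 CPM in COLD in ASC2, with 0 of 16 called in either. The part of these genes and of the shift between ASC1 clusters in the Hspa1a values was not tested. The ASC3 call was lost without RT replicate 1 or COLD replicate 2 (adjusted p up to 0.607), and the CL call without RT replicate 1 or CL replicate 1 (adjusted p up to 0.463).

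Outside the sparsely counted erythroid cells, the largest called changes among the members were in MAC2 macrophages, where the inducible Hsp70 genes and their J-domain partner fell in COLD. Hspa1b was 883 and 306 CPM at RT, 36.0 and 49.5 CPM in COLD and 90.0 and 86.3 CPM in CL. It fell by 3.84 ± 0.44 in COLD (adjusted p = 0.00127) and fell by 2.78 ± 0.41 in CL (adjusted p = 0.0106). Every treated library lay under both RT libraries, although the RT libraries were themselves nearly 3-fold apart. Of all genes tested in MAC2, 31.8% had both COLD libraries, and 23.8% both CL libraries, below both RT libraries. Hspa1a was 1326 and 1095 CPM at RT, 231 and 346 CPM in COLD and 288 and 468 CPM in CL, and fell by 2.10 ± 0.33 in COLD (adjusted p = 0.00416) and by 1.68 ± 0.33 in CL (adjusted p = 0.0245). Dnajb1 was 178 and 148 CPM at RT against 65.8 and 64.4 CPM in COLD, a fall of 1.34 ± 0.28 (adjusted p = 0.0110), and 60.6 and 98.8 CPM in CL (-1.05, adjusted p = 0.0569). The CL change of Dnajb1 passed with DESeq2 (-1.07, adjusted p = 0.0203) and with the replicate block (-1.09, adjusted p = 0.0169). In MAC2, 20.3% of all genes tested were called in COLD and 4.72% in CL. The values rest on 80 to 1866 counts of Hspa1b per library, so counting error was small beside the gap between the RT libraries.

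The remaining members in MAC2 did not pass in COLD in the main edgeR fit. Hsp90aa1, the stress-inducible Hsp90 gene, was 1136 and 803 CPM at RT against 520 and 655 CPM in COLD (-0.74, adjusted p = 0.0722). DESeq2 called Hsp90aa1 lower (-0.75, adjusted p = 0.0353). Hspa5 (-0.41) and Hsph1 (-0.37) had negative values, and Hsp90ab1 (0.25), Hspa8 (0.31), Hspe1 (0.14) and Hspd1 (0.02) had values above 0. In the main edgeR fit the lower level was therefore called for the inducible Hsp70 pair and Dnajb1 and for no other member. DESeq2 called it for these and for Hsp90aa1, but not for Hsph1.

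Several measures moved with the MAC2 result. The main cluster changed with treatment, as given above. Within the cluster that held the RT cells, Hspa1b was 908 and 315 CPM at RT against 112 and 70.8 CPM in COLD (-2.92, adjusted p = 0.0027), and Hspa1a was 1373 and 1128 CPM at RT against 678 and 310 CPM in COLD (-1.53, adjusted p = 0.0330). These COLD values came from only 77 and 42 cells. Within that cluster Dnajb1 in COLD (-0.56, adjusted p = 0.424) and Hspa1a in CL (-1.29, adjusted p = 0.0803) were lost. A list of 16 immediate early genes, which dissociation also induces, summed to 16541 and 17369 CPM at RT, 7758 and 8868 CPM in COLD and 5917 and 11992 CPM in CL in MAC2. In COLD 7 of the 16 fell, with a median change of -1.15 and none above 0, and in CL none was called (median -0.91). In MONO the same list summed to 7947 and 10230 CPM at RT against 10187 and 12424 CPM in COLD, with none called. The median UMI count of a MAC2 cell was 2736 and 3262 at RT, 5787 and 4465 in COLD and 3233 and 4895 in CL. The median mitochondrial share of a MAC2 cell was 3.92% and 1.10% at RT, 0.701% and 0.528% in COLD and 0.0172% and 3.55% in CL. The part of these measures in the fall of Hspa1a, Hspa1b and Dnajb1 was not tested. The Hspa1b call in COLD held under all 15 alternatives (-4.39 to -2.75). The Hspa1a call in COLD was lost without RT replicate 1 (-1.94, adjusted p = 0.0530) and without COLD replicate 1 (-1.84, adjusted p = 0.0645), and that in CL without RT replicate 1 (-1.54) and without RT replicate 2 (-1.79). The Hspa1b call in CL was lost without RT replicate 1 (-1.83, adjusted p = 0.0852). Dnajb1 in COLD was lost without RT replicate 1 (-1.20), COLD replicate 1 (-1.38) or COLD replicate 2 (-1.29) and with the Adrb1 line in the fit (-0.46, adjusted p = 0.327).

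**Figure D4:**
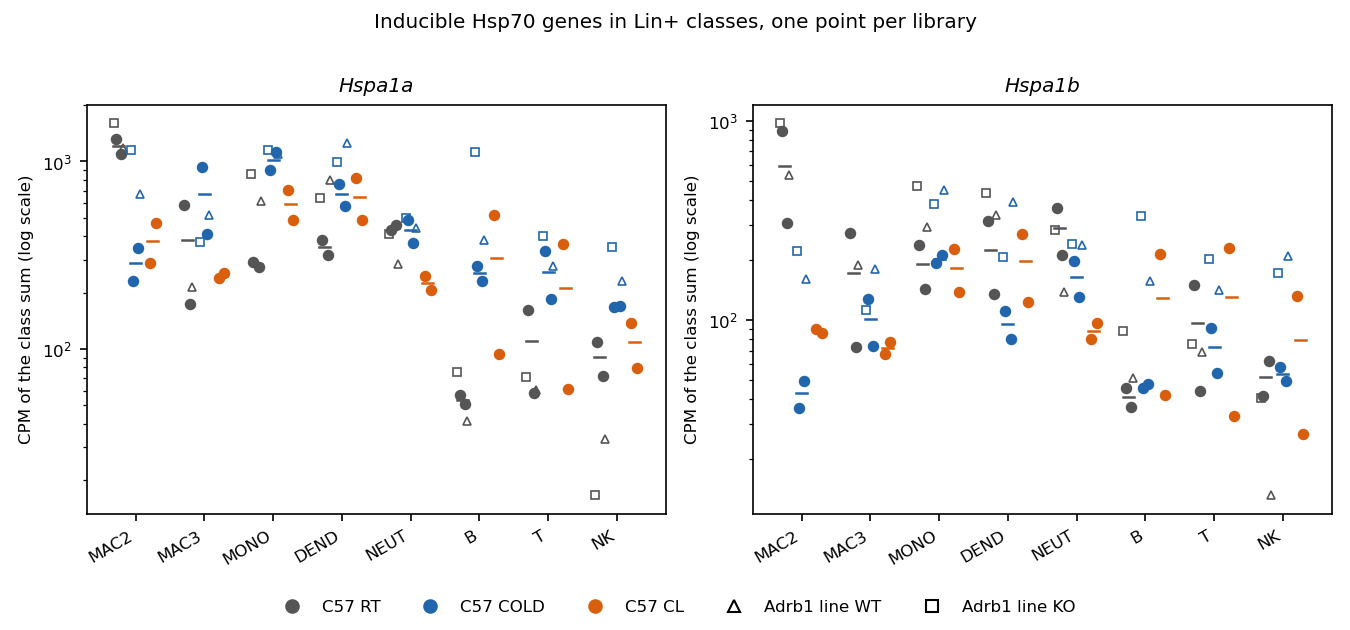
CPM of Hspa1a and Hspa1b in every library (log axis) for 8 Lin+ classes, with filled points for C57 libraries, bars for their mean, triangles for Adrb1 WT and squares for Adrb1 KO. In MAC2 the C57 COLD points lie at 231 and 346 CPM for Hspa1a and at 36.0 and 49.5 CPM for Hspa1b, under all RT points, whereas Hspa1a in MONO lies at 904 and 1128 CPM in COLD, above the C57 RT points.

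In monocytes Hspa1a rose in COLD. It was 291 and 274 CPM at RT, 904 and 1128 CPM in COLD and 704 and 489 CPM in CL, a rise of 1.73 ± 0.22 in COLD (adjusted p = 0.00274) where 0.644% of the genes tested in MONO were called. Both RT libraries lay close together and below all 4 treated libraries, and the CL change was 0.97 (adjusted p = 0.0774). The CL change passed with DESeq2 (0.97, adjusted p = 0.0119) and with the replicate block (0.97, adjusted p = 0.0312). Of all genes tested in MONO, 30.6% had both COLD libraries, and 23.1% both CL libraries, above both RT libraries. The call was lost without COLD replicate 1 (1.89, adjusted p = 0.0701) and without COLD replicate 2 (1.56, adjusted p = 0.111). Hspa1b, with the promoter that differs at so few positions, was 237 and 142 CPM at RT against 192 and 211 CPM in COLD (-0.03, adjusted p = 0.973), so its COLD values lay between those at RT. Hsph1 in MONO was 19.6 and 9.57 CPM at RT against 52.7 and 42.3 CPM in COLD (1.57, adjusted p = 0.0655, and adjusted p = 0.0109 with the replicate block). Dnajb1 (0.71, adjusted p = 0.144) and Hspa8 (0.71, adjusted p = 0.182) were above 0 without a call. The MONO class joined a cluster led by Ace and Cd300e (1534 cells over all libraries) with clusters led by Gm9733 and Chil3 (1254 and 1137 cells). Levels within these clusters are not given, and the part of a shift between them in the MONO values was not tested.

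In B cells, Hspa1a was 56.7 and 50.8 CPM at RT, 277 and 231 CPM in COLD and 520 and 93.7 CPM in CL. The immediate early genes summed to 7604 and 11516 CPM at RT, 12635 and 15450 CPM in COLD and 13001 and 13265 CPM in CL in B cells, with 0 of 16 called, and their part in the Hspa1a values was not tested. Every treated library lay above both RT libraries for Hspa1a, at changes of 2.05 (adjusted p = 0.0943) and 2.22 (adjusted p = 0.0884) that missed the threshold, and passed with the replicate number as a block (2.07, adjusted p = 0.0298, and 2.00, adjusted p = 0.0333). Of all genes tested in B cells, 35.3% had both COLD libraries, and 19.2% both CL libraries, above both RT libraries. In dendritic cells Hspa1a was 380 and 316 CPM at RT against 754 and 580 CPM in COLD (0.70, adjusted p = 0.0918, and 0.0363 with the block). Hspa1b in DEND was 311 and 134 CPM at RT against 111 and 80.2 CPM in COLD, a fall of 1.47 ± 0.39 (adjusted p = 0.0457) where 9.28% of genes were called. This call was lost without RT replicate 1 (-0.67), COLD replicate 1 (-1.72) or COLD replicate 2 (-1.28), and with the Adrb1 line (-0.81). Over all Lin+ classes in COLD, Hspa1b had values below 0 in 8 of 8 and Hspa1a values above 0 in 7 of 9. In neutrophils Hspa1a was 429 and 456 CPM at RT, 490 and 368 CPM in COLD and 244 and 207 CPM in CL, without a call.

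The contrast between MAC2 and the other immune classes was tested directly. The cold response of Hspa1a in MAC2 was below that in MONO by 3.87 (difference -3.87, adjusted p = 8.56e-07), that of Hspa1b by 3.74 (difference -3.74, adjusted p = 7.17e-07) and that of Dnajb1 by 2.10 (difference -2.10), where 7.44% of genes differed in COLD and 2.33% in CL. For Hspa1a, Hspa1b and Dnajb1 the response was also lower in MAC2 than in B cells, DEND and T cells, in COLD and in CL, and the COLD differences were kept in 6 of 6 leave-one-out fits in all 4 pairs. Of the CL differences, those from B cells were kept in 6 of 6 fits for all 3 genes. Against DEND, Hspa1a and Dnajb1 were lost without either RT library (adjusted p up to 0.117 and 0.147) and Hspa1b without RT replicate 1 (adjusted p = 0.0911). Against T cells, Hspa1a and Dnajb1 were lost without CL replicate 1 or RT replicate 2 (adjusted p up to 0.526 and 0.0698), and against MONO Dnajb1 was lost without RT replicate 1 (adjusted p = 0.0787). Hspa1a differed by -4.10 against B cells, -2.86 against DEND and -3.15 against T cells in COLD. Members called in COLD numbered 5, 5, 6 and 4 of 10 against B cells, DEND, MONO and T cells, where 6.34%, 9.34%, 7.44% and 6.39% of all genes differed, and those called in CL numbered 6, 4, 5 and 4 of 10, where 1.71%, 2.52%, 2.33% and 1.44% differed. Every called member difference that involved MAC2 was negative. Hsp90aa1 was among them in COLD in all 4 pairs (-1.30 to -1.07). Its calls were lost without RT replicate 1 or COLD replicate 1 against B cells, DEND and T cells, without COLD replicate 2 against B cells, without RT replicate 2 against DEND and T cells, and without COLD replicate 1 against MONO (adjusted p up to 0.350). Over all 7 pairs of classes tested, 7.75% of gene tests were called in COLD and 1.68% in CL.

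The ER chaperone Hspa5, which holds secretory proteins during folding, rose in dendritic cells. It was 601 and 596 CPM at RT, 1456 and 1264 CPM in COLD and 819 and 687 CPM in CL, with close replicates and no overlap between COLD and RT. Of all genes tested in DEND, 47.7% had both COLD libraries above both RT libraries and 16.3% had both below. The rise in COLD was 0.95 ± 0.20 (adjusted p = 0.0207), and it was lost without any 1 of the RT or COLD libraries (0.85 to 1.03) and with the Adrb1 line (0.57). The class joined 3 clusters, led by Cd209a, Xcr1 and Siglech, and Hspa5 was higher in both COLD libraries than in both RT libraries within each. It was 545 and 592 CPM at RT against 1273 and 1028 CPM in COLD in the Cd209a cluster, and 625 and 573 CPM at RT against 1668 and 1508 CPM in COLD in the Xcr1 cluster. Cell-cycle genes moved with it in DEND, with 8 of 8 above 0 in COLD (median 0.66, 2 called) and sums of 171 and 164 CPM at RT against 256 and 335 CPM in COLD, and their part was not tested. In the MAC3 macrophages Hspa5 was 652 and 320 CPM at RT against 1880 and 1112 CPM in COLD, without a call, and passed with the replicate block (1.62, adjusted p = 0.00363) and with DESeq2 (1.52, adjusted p = 0.0280). These RT values came from only 32 and 22 cells, against 1251 and 572 cells in COLD. Hspa5 was above 0 in 8 of 9 Lin+ classes in COLD, with MAC2 (-0.41) as the exception. Its response in MAC2 was below that in DEND by 1.39 (difference -1.39, lost without COLD replicate 1, adjusted p = 0.0509) and below that in MONO by 0.93 (difference -0.93, lost without RT replicate 1, RT replicate 2 or COLD replicate 1, adjusted p up to 0.269).

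Other ER chaperones of a wider list of 84 chaperone genes moved in the same class. In DEND, 12 of the 73 list genes tested rose in COLD and none fell, and 9 of these 12 were among its 18 ER genes, beside the 9.28% of all genes called. Creld2, an ER stress-induced disulfide isomerase partner, was 53.8 and 45.7 CPM at RT against 176 and 140 CPM in COLD (1.42, adjusted p = 0.0107). The disulfide isomerase Pdia4 was 33.1 and 47.9 CPM at RT against 110 and 90.3 CPM in COLD (1.08, adjusted p = 0.0108), and the J-domain cofactor of BiP, Dnajb11, was 80.6 and 91.5 CPM at RT against 208 and 179 CPM in COLD (0.93, adjusted p = 0.0153). Creld2 (1.22, adjusted p = 0.0098) and Pdia4 (0.85, adjusted p = 0.0399) also rose in ASC1, where Hspa5 itself was not called. In NEUT the prefoldin subunit Pfdn1 rose (1.39, adjusted p = 0.0400), and in MAC3 the ER stress factor gene Ddit3 was higher in COLD than in CL (1.23, adjusted p = 0.0296). The isomerase Pdia6 rose in MAC2 (0.89, adjusted p = 0.0112), MAC3 (1.45, adjusted p = 0.0298) and MONO (0.90, adjusted p = 0.0294), and Sdf2l1, an ER partner of Hspa5, rose in B cells (1.38, adjusted p = 0.0392).

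Of the 78 genes of the wider list tested in MAC2, 8 rose and 6 fell in COLD, a share of 17.9% called where 20.3% of all genes were called. The cytosolic J-domain gene Dnajb4 fell from 45.7 and 32.1 CPM to 8.64 and 12.0 CPM (-2.03, adjusted p = 0.00255), and Herpud1 (-1.83, adjusted p = 0.00726) and Dnajb9 (-1.72, adjusted p = 0.00356), both induced by ER stress, fell as well. The Hsp70 exchange factor Bag1 (1.07, adjusted p = 0.00954) and the mitochondrial exchange factor Grpel1 (0.86, adjusted p = 0.0189) rose. In CL 4 list genes fell in MAC2 and none rose (5.13% of the list, beside 4.72% of all genes), among them Dnajb5 (-2.10, adjusted p = 0.0183), Atf4 (-1.09, adjusted p = 0.0328) and Dnajb9 (-1.11, adjusted p = 0.0379). In MONO the list held 2 genes that rose, Pdia6 and the Hsp90 partner Fkbp5, which was 6.09 and 2.96 CPM at RT against 23.0 and 38.7 CPM in COLD (2.63, adjusted p = 0.0195). In ASC1 5 rose and 2 fell of 82 (8.54%, beside 12.3% of all genes), among them the chaperonin subunit Cct3 (0.79, adjusted p = 0.0355) the Hsp70 gene Hspa2 (-1.09, adjusted p = 0.0309) and the J-domain gene Dnajb2 (-0.96, adjusted p = 0.0133). Over all classes the list had 25 rises and 6 falls in 607 Lin+ tests and 5 rises and 2 falls in 477 Lin- tests in COLD, shares of 5.11% and 1.47% beside 5.2% and 3.05% of all genes, so the list as a whole was called no more often than other genes.

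Hspa8, Hsp90ab1, Hspd1 and Hspe1 were not called in any Lin+ class in COLD in the main edgeR fit. Hspa8, which folds new proteins and strips clathrin coats, had values above 0 in 9 of 9 Lin+ classes in COLD (0.19 to 1.70, median 0.64), and Hsp90ab1 in 9 of 9 (0.18 to 0.87, median 0.39). Hspd1 was above 0 in 8 of 8 (0.02 to 0.84) and Hspe1 in 5 of 9 (-0.16 to 0.41). Hspa8 in DEND was 1861 and 1835 CPM at RT, 3742 and 2976 CPM in COLD and 2760 and 2234 CPM in CL (0.63 in COLD, adjusted p = 0.104). DESeq2 called this COLD change of Hspa8 (0.62, adjusted p = 0.0232). In B cells it was 723 and 766 CPM at RT against 1334 and 1416 CPM in COLD. The treated libraries of these classes all lay above the RT libraries. So did both COLD libraries for 47.7% of all genes in DEND and 35.3% in B cells, and both CL libraries for 30.1% and 19.2%. The classes of a library share cells of the same mice and 1 preparation, so they are not independent.

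Erythroid cells gave the call with the least data. Hspa1a had 0 counts after rounding in both RT libraries (0.22 and 0.27 CPM) and 29 and 42 counts in the COLD libraries (17.8 and 17.1 CPM), which is at least 8.86-fold higher than the floor of 3 counts over the RT group. The edgeR adjusted p was 0.0403 where 3.39% of genes were called, and the call was lost without any 1 of the RT or COLD libraries. It was also lost when the sums were thinned to the smallest one and with a mitochondrial limit of 5%. Of all genes tested in this class, 72.0% had both COLD libraries above both RT libraries and 0.801% had both below. The immediate early genes summed to 98.7 and 281 CPM at RT against 276 and 641 CPM in COLD, with none called, and the part of either in the Hspa1a value was not tested.

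COLD and CL were also compared directly. No member passed in any class in the edgeR fit with the low-count filter, all 6 C57 libraries and no replicate block, with the smallest adjusted p at 0.118 in Lin+ and 0.347 in Lin- classes, where 0.388% and 0.189% of all gene tests were called. DESeq2 called 1 test, Hspa5 in DEND (0.81 higher in COLD, adjusted p = 0.00119). With the replicate block 2 tests passed, Hspa1b in DEND (-0.99, adjusted p = 0.0170) and Hspa1a in MAC3 (1.30, adjusted p = 0.0452). An unadjusted p under 0.05 was found for 13 of 86 Lin+ and 7 of 58 Lin- member tests (15.1% and 12.1%), beside 7.90% and 7.64% of all gene tests. COLD and CL share their RT libraries, so their changes against RT are not independent of each other.

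In the Adrb1 line each group was 1 experiment, and the RT and COLD libraries were made with different kits, so cold and kit cannot be told apart and no test was made. Hspa1b in MAC2 was lower in COLD in both genotypes, at 532 CPM at RT and 160 CPM in COLD in the WT and at 967 and 222 CPM in the KO. Hspa1a in MAC2 was 1176 and 671 CPM in the WT and 1595 and 1146 CPM in the KO. Dnajb1 in MAC2, unlike in C57 mice, was 133 and 124 CPM in the WT and 154 and 219 CPM in the KO. The immediate early genes summed in MAC2 to 23209 CPM at RT and 8561 CPM in COLD in the WT and to 25312 and 11562 CPM in the KO. Hspa1a was higher in COLD in both genotypes in 6 of 6 Lin- and 6 of 9 Lin+ classes, and Hspe1 and Hspa8 in 8 of 9 Lin+ classes each. Hspa5 was lower in both genotypes in 8 of 9 Lin+ classes, opposite to the direction of most C57 classes. Between genotypes in COLD, where Cre acts in the ASCs, ASC1 had 171 and 132 CPM of Hspa1a, 47.8 and 46.3 CPM of Hsph1, 1040 and 1048 CPM of Hspa5 and 590 and 623 CPM of Hspe1 in the WT and the KO. Without replicates these pairs have no estimate of spread.

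From cell to cell the members varied together only weakly. Over 45 pairs of members, the median correlation across cells of a library had a median of 0.068 in ASC1 and 0.093 in MAC2, with the highest value for Hspa1a and Hspa1b in MAC2 (0.36, between 0.32 and 0.56 in the 6 C57 libraries). Such correlations share the sparse counts of each cell and are a description only. Over 108 class sums of C57 libraries, with each class centred, the genes most like Hspa1a were Gnb2 (r = 0.71), Srsf7 (0.70) and Ier5 (0.69), and those most like Hsp90aa1 were Srsf7 (0.74), Hnrnpa2b1 (0.72) and Ran (0.72). Genes like Hspa5 included Eif4a1 (0.80) and Srsf7 (0.77), and those most like Hspd1 were Atp5f1, Sod2 and Tomm20 (0.77 each). The points share libraries and depth.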

How the data were processed

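Single cells of iBAT were profiled in 20 droplet libraries. The authors aligned reads with Cell Ranger 3.0.1 to mm10, removed ambient RNA with SoupX and deposited the corrected matrices as estimated counts per gene and cell, 97.2% to 99.6% of whose values in a library were not whole. Corrected values can understate genes abundant in the ambient RNA. Barcodes with under 10% mitochondrial counts, under 15000 UMIs and, per the study's methods, over 100 genes (Lin-) or under 4000 genes (Lin+) were kept: 66339 of 89637 Lin- and 59935 of 67122 Lin+. Library totals were 7.86e+06 to 3.13e+07 UMIs (Lin-) and 9.39e+06 to 4.20e+07 (Lin+). Cells were clustered with scanpy 1.11.5 and leidenalg 0.10.2 (2000 variable genes without chaperones, 30 components, Harmony), and clusters were named from marker genes. Doublets were kept, and an alternative removed the 6% with the highest scores. In CL replicate 2 the Lin+ and Lin- libraries shared 1098 barcodes (17.1% of the smaller), against at most 2.04% in other pairs.

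Counts were summed per class and library, rounded, and tested in classes with at least 20 cells per C57 library using edgeR 4.0.16 (quasi-likelihood, TMM, low-count filter, Benjamini-Hochberg adjusted p under 0.05), with DESeq2 1.42.0 as an alternative. Differences between classes were tested as an interaction term with the library as a block. Level orders were compared with 2-sided exact sign-flip permutation tests of log2(CPM + 1). In simulated data based on ASC1, edgeR recovered 39.0% of genes changed 2-fold and 81.8% of those changed 4-fold (12482 genes), and based on MAC2 33.0% and 90.9% (10003 genes). For simulated differences in cold response between MAC2 and MONO, the interaction test recovered 11% at 2-fold and 77% at 4-fold (7379 genes). Replicate libraries differed by more than sampling noise. Intervals and floors of counts cover counting error only.

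The methods describe independent replicate experiments and merge the RT, COLD and CL libraries of the same experiment, so replicate numbers may pair libraries. Deviations of same-numbered libraries correlated above 0.1 in 26 of 45 comparisons (-0.165 to 0.394), and the fit without the block was the main one. All 10 members were named throughout. Of the wider list, the up to 3 largest and 3 smallest changes of a class past the threshold with separated libraries were named, and for 4 members the 3 genes of most similar pattern with at least 20 CPM. One gene of similar pattern is not reported here. Members and lists were chosen with earlier results of these data known.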

Additional observations from a re-analysis of the deposited data

Results flagged for a closer look

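In 49 of the 140 tests of a member in a pair of classes, the response to COLD or CL differed between the classes by the edgeR interaction term (adjusted p from 7.17e-07 to 0.04996). Over all 7 pairs, 7.75% of gene tests were called in COLD and 1.68% in CL. All MAC2 pairs share the MAC2 sums and all ASC1 pairs the ASC1 sums, so these tests are not independent. Values are differences of log2 fold changes against RT.

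The response in MAC2 was below that of the class compared for each of the following. For Hspa1a the difference in COLD was -4.10 from B cells, -2.86 from DEND, -3.87 from MONO and -3.15 from T cells, and in CL it was -3.69, -2.44, -2.74 and -2.23 in the same order. For Hspa1b it was -3.59, -2.41, -3.74 and -3.19 in COLD and -3.72, -2.30, -2.51 and -2.59 in CL. For Dnajb1 it was -2.10, -1.60, -2.10 and -1.48 in COLD and -1.80, -1.51, -1.36 and -1.33 in CL. Hsp90aa1 differed in COLD by -1.07, -1.08, -1.30 and -1.10, and in CL by -1.29 from B cells and -0.94 from MONO. These CL calls were lost in 2 of 6 (B cells, without RT replicate 1 or CL replicate 1) and 5 of 6 leave-one-out fits (MONO, all but that without CL replicate 2, adjusted p up to 0.361). Hsph1 differed in COLD by -1.19 from B cells and -2.00 from MONO, and in CL by -2.04, -1.60, -1.41 and -1.37 from B cells, DEND, MONO and T cells, of which the MONO value lost its call in 6 of 6 leave-one-out fits. Hspa5 differed in COLD by -1.39 from DEND and -0.93 from MONO, and Hspd1 in CL by -1.11 from B cells (lost without RT replicate 1, adjusted p = 0.260). The Hsph1 calls in CL from DEND and T cells were lost without either RT library and without CL replicate 1, and those in COLD without RT replicate 1 or either COLD library from B cells and without COLD replicate 1 from MONO.

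The response of ASC1 to COLD exceeded that of ASC2 by 1.28 for Hspd1 and 1.27 for Hspe1, that of ASC3 by 1.53 for Hspd1, 1.69 for Hspe1 and 0.91 for Hspa8, and that of VEC by 1.37 for Hspa5 and 1.11 for Hspe1. For Hspa1a it was below, by -1.61 from ASC2 and -0.92 from ASC3 in COLD and by -0.99 from ASC2 in CL. The Hspa8 call was lost without COLD replicate 1, CL replicate 1 or RT replicate 2 (0.58 to 1.31, adjusted p up to 0.400).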

How the results depend on the processing

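Counts of member calls are given in the order Lin- COLD, Lin- CL, COLD against CL, Lin+ COLD and Lin+ CL, and were 2, 0, 0, 7 and 2. Without a filter on low counts they were 8, 4, 8, 18 and 10. With the replicate block, which uses the pairing by experiment, they were 2, 2, 2, 12 and 7, and no call was lost. DESeq2 gave 1 call for COLD against CL and 5 for Lin+ CL. Adding the Adrb1 line gave 6 for Lin- COLD and 23 for Lin+ COLD, with kit and cold partly confounded. An alternative chosen after seeing the data replaced ASC1 and MAC2 by their main RT clusters and kept the other classes as they were. With it 1 Lin- COLD and 1 Lin+ CL call remained. The Lin- call was Hsph1 in ASC2, so no ASC1 call was left, and the Lin+ CL call was Hspa1b in MAC2. Leaving out 1 library at a time gave 0 to 12, 0 to 12, 0 to 3, 1 to 18 and 0 to 13 calls, and 35 to 57 differences between classes where all libraries gave 49. Leaving out barcodes shared between fractions changed no count. The share of all gene tests called under each alternative is not given, so these counts do not set the members apart from other genes. With C57 libraries only, 0 neighbouring levels differed instead of 15, where the exact permutation test on 6 libraries cannot give an unadjusted p below 0.03125. The cause of the other shifts was not tested. Only member results called in the main fits were recomputed in this way. Of 451 such recomputed results, 353 kept direction and call, 98 lost the call and 0 reversed. Uncalled results are not counted there, and some changed direction, as given above for Hspa1a in Schwann cells.

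With 2 pools per C57 treatment, edgeR recovered about 39.0% of 2-fold changes in simulated ASC1 data and 33.0% in MAC2 data, so many changes of that size would be missed. The interaction test recovered only 11% of simulated 2-fold differences in cold response between MAC2 and MONO. Lin- comparisons rest on RT libraries that differed for 5 members, most for Hspa1a and Hspa8. Classes were named from markers, and cells of a class shifted between clusters with treatment. Low counts, as in erythroid cells, limit the smaller classes.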
